A study of Homo sapiens with 21 samples.

Results

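The core circular RNAs of the study were those with at least 1 read in each of its 21 libraries. They numbered 2480 of the 124082 circular RNAs (circRNAs) in the table, or 2.00%, after hsa_circ_11052, the most abundant of all, was left out. The members were thus chosen by their counts in every library, which fixes that each is present in all 7 groups and removes any circRNA at 0 in one of them. Their presence is not a result, and the results concern their levels.

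Circular RNAs are made when the end of an exon is joined back to the start of an exon upstream, which closes the transcript into a ring without free ends. Rings resist the exonucleases that degrade linear RNA from its ends and are often long-lived. Which exons circularise, and how much, depends on transcription of the host gene and on its splicing, and many circRNAs are known to differ between cell types. The table gives circRNA numbers alone, without genes or genome positions, so no function, position or sequence is given for any member, and the cell lines were not checked against marker genes.

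The libraries came from 3 human lung cell lines, with 3 libraries in each group. NCI-H1975 is an EGFR-mutant lung cancer line. It was sequenced as osimertinib-resistant cells in 1 µM of that EGFR inhibitor, as cells transfected with FASN (the gene of fatty acid synthase, which builds palmitate), as cells transfected with the plasmid pCMV6, and as cells with neither code, called NCI-H1975 below. FASN and pCMV6 cells were both in 50 µg/ml G418, the selection agent, which the cells without a plasmid code were not stated to receive. PC-9, another EGFR-mutant lung cancer line, was sequenced as gefitinib-resistant cells in 1 µM of gefitinib, an earlier EGFR inhibitor, and without a resistance code. NL20, an immortalized, nontumorigenic bronchial epithelial line with no listed EGFR mutation, was the normal control. All were passaged in the same serum-containing medium. Each kind of cell is a single line, and the labels do not say whether resistant or transfected cells were clones or whether the libraries of a group were separate cultures. P-values therefore measure the spread between these libraries, which may be technical.

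Library totals ran from 95808 to 203079 reads. The median member had 11 to 21 reads in a library, and the median of the other circRNAs read there was 2 to 3. Osimertinib-resistant replicate 2 stood apart. It had 15244 distinct circRNAs, against 18494 to 30198 in the other libraries, and the counts of members that rest on it are also given without it. It had the same total as pCMV6 replicate 1, 110456 reads, but 26167 of the 27078 circRNAs read in either had different counts, among them 2346 members.

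The core was a small part of the circRNAs of a library but held a large part of its reads. Members made up between 8.21% and 16.3% of the distinct circRNAs of a library, and between 47.3% and 51.1% of its reads. By group, they held 47.6% ± 0.24 of the reads in osimertinib-resistant NCI-H1975, 47.8% ± 0.12 with FASN, 50.5% ± 0.39 with pCMV6 and 47.7% ± 0.079 in NCI-H1975 (mean ± SD, n = 3). Gefitinib-resistant PC-9 had a share of 50.4% ± 0.57, PC-9 one of 49.4% ± 0.64 and NL20 one of 49.5% ± 0.46. Without replicate 2, the osimertinib-resistant libraries stood at 47.8% and 47.7%. The libraries of the osimertinib-resistant, FASN and NCI-H1975 groups lay below all libraries of the other 4 groups. These are also the groups in which hsa_circ_11052 took the most reads, 8.67% ± 2.36, 6.05% ± 0.14 and 5.99% ± 0.22, against 2.98% ± 0.042 in pCMV6 cells, 0.146% ± 0.028 with gefitinib resistance, 0.146% ± 0.021 without it in PC-9, and 0.324% ± 0.020 for NL20. In these bulk libraries, fewer cells that make a circRNA and less of it per cell cannot be told apart.

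With the reads of hsa_circ_11052 left out of the total, the order changed. The core then held 52.1% ± 1.11 in osimertinib-resistant cells, 50.9% ± 0.21 with FASN, 52.0% ± 0.41 with pCMV6 and 50.8% ± 0.14 in NCI-H1975 (SD, n = 3). Gefitinib-resistant PC-9 then had 50.5% ± 0.58, PC-9 had 49.5% ± 0.65 and NL20 had 49.7% ± 0.46. All libraries of the 4 NCI-H1975 groups now lay above those of PC-9 and NL20, while gefitinib-resistant PC-9, at 50.1% to 51.2%, overlapped with them. Osimertinib-resistant replicate 2 was the highest at 53.4%, and the other libraries of that group had 51.3% and 51.7%. No test was made of these shares, since the same counts chose the members. The rule asked for a read in more libraries of NCI-H1975 than of PC-9 or NL20. The part of this imbalance in the order of the lines was not tested.

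**Figure D1:**
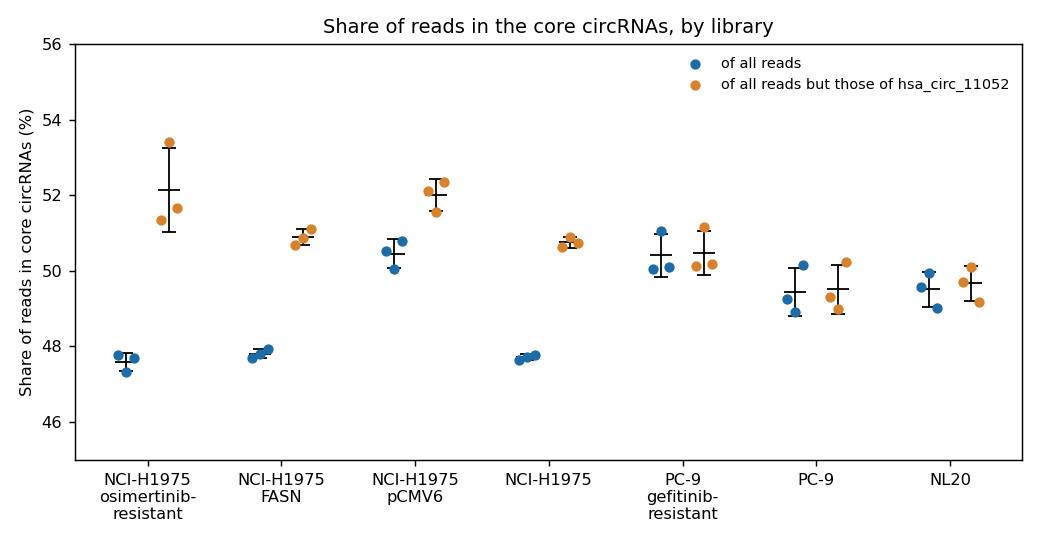
Share of reads in the 2480 core circRNAs, in percent, for each of the 21 libraries. Blue points are shares of all reads and orange points shares of the reads that remain without hsa_circ_11052, and black marks give the mean and SD of a group (n = 3). The vertical axis does not start at 0. All blue points lie between 47.3% and 51.1%, and the blue points of the osimertinib-resistant, FASN and NCI-H1975 groups lie lowest.

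Within the core, reads were spread over many circRNAs. Between 281 and 318 members took 50% of the member reads of a library, and the 10 highest took between 7.18% and 9.08%. Among the 100 most abundant circRNAs of a library, hsa_circ_11052 aside, 95 to 98 were members in the NCI-H1975 groups, 94 in each NL20 library and 89 to 92 in the PC-9 groups. The part of the unequal numbers of libraries per line in these counts was not tested. Over all libraries, the mean reads of a member ran from 3.05 to 1088, with a median of 14.8 and quartiles of 9.05 and 27.7. A further 136 circRNAs had a mean above that median but lacked a read in at least 1 library. The highest mean among circRNAs outside the core was 203 reads.

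The edge of the core lay among low counts. Of the members, 749 had 1 read in at least 1 library, and their median mean was 7.95 reads. Just outside stood 1068 circRNAs read in 20 of the 21 libraries, with a median mean of 6.43 reads. Of these, 194 lacked a read in osimertinib-resistant replicate 2 alone, and between 13 and 103 did so in any other library. With a library left out of the rule, between 2493 and 2674 circRNAs met it, the most without osimertinib-resistant replicate 2. A lowest count of at least 2 was met by 1731 members, of at least 5 by 895 and of at least 10 by 479.

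Counts were tested with edgeR's quasi-likelihood test in 1 model over all 21 libraries, fitted to the 9175 circRNAs that passed a filter on low counts. All but 2 members passed it, which left 2478. A circRNA was called at a Benjamini-Hochberg adjusted p under 0.05 over all 9175. CPM (counts for each 1000000 reads in the circRNAs tested) were used for levels, and library sizes were scaled by TMM, a trimmed mean of log ratios. Log2 differences are of the first group named minus the second. Members are better counted than the rest, with a median of 14.8 reads per library against 4.67 over all circRNAs tested. The part of this depth in the shares called was not tested.

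Cell line accounted for the largest of the 3 parts of the spread of the members. Of the sum of squares of log2 CPM of the members, 43.2% lay between lines, 19.7% between groups of a line and 37.1% between libraries of a group. Over all circRNAs tested the parts were 40.4%, 18.1% and 41.4%. Without osimertinib-resistant replicate 2, the members' parts were 45.6%, 19.1% and 35.3%. The Spearman correlation across members had a median of 0.788 for the 21 pairs of libraries within a group, 0.724 for pairs between groups of a line and 0.555 for pairs between lines. The lowest pairs within a group, 0.702 and 0.716, were those with osimertinib-resistant replicate 2. The ranges within groups (0.702 to 0.861) and between lines (0.477 to 0.621) did not overlap. Pairs between groups of a line, at 0.594 to 0.810, overlapped with both. PC-9 and NL20 libraries were at 0.580 to 0.621, NCI-H1975 and NL20 libraries at 0.498 to 0.615, and NCI-H1975 and PC-9 libraries at 0.477 to 0.610. These values describe the libraries across 2478 members, which share depth and counting noise and are not independent.

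The spread of members between libraries of a group differed between groups. The chi-square of a member's counts per degree of freedom had a mean over members of 2.03 in FASN cells, the lowest, and 3.08 in osimertinib-resistant cells, the highest. It takes reads as independent molecules, which PCR copies are not, and is given as a description. The median SD of log2 CPM within a group was 0.48 in osimertinib-resistant, 0.41 in FASN, 0.46 in pCMV6 and 0.38 in NCI-H1975 cells. Gefitinib-resistant PC-9 had 0.43, PC-9 had 0.41 and NL20 had 0.34. Outside the osimertinib-resistant group, this SD fell at each step as the mean library total rose, from pCMV6 (101381 reads) to NL20 (178792 reads). The median chi-square per degree of freedom was 1.43 to 1.62 in these groups. In osimertinib-resistant cells it was 2.03, at a mean total of 130093 reads. The part of library depth in the SDs was not tested. Without osimertinib-resistant replicate 2 that group's median SD was 0.34 and its mean chi-square 2.41. Both then rest on 2 libraries, and a median SD of 2 libraries runs lower than one of 3 at the same spread. The 0.34 is therefore not set against the other groups. The coefficient of variation beyond counting error, as edgeR's trend gives it, had a median of 33.2% for members and 55.2% for all circRNAs tested.

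Each of the 3 members with the most reads differed between lines. hsa_circ_10431 had 18830.4, 16635 and 18405 CPM in the osimertinib-resistant, 10791, 12756 and 12835 in the FASN, 15101, 15746 and 14375 in the pCMV6 and 14616, 14048 and 14340.2 in the NCI-H1975 libraries. Gefitinib-resistant PC-9 libraries had 2259.6, 3211 and 3093 CPM, PC-9 libraries 2807, 3609.6 and 2666 and NL20 libraries 10258, 10032 and 10046. All libraries of the PC-9 groups thus lay below every other library, and the FASN libraries overlapped with none of the pCMV6 ones. hsa_circ_10431 ranked first among members in 15 libraries, all those of NCI-H1975 and NL20. It was 4.72-fold higher in NCI-H1975 than in PC-9 (log2 2.24 ± 0.12 SE, edgeR adjusted p = 4.81e-69) and not called in any of the comparisons within a line.

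The next most read member differed less between lines. hsa_circ_14781 had 5396, 8013 and 5376 CPM in osimertinib-resistant cells, 6573, 5986 and 6436 in FASN, 7658, 6249 and 6947 in pCMV6 and 6357, 7184 and 6936 in NCI-H1975. Gefitinib-resistant PC-9 libraries stood at 4297, 5600.2 and 4554 CPM, PC-9 libraries at 4324, 4733 and 4106 and NL20 libraries at 5781, 7135 and 5010.2. PC-9 lay below NCI-H1975 and NL20 without overlap, by a fold of 1.55 between NCI-H1975 and PC-9 (log2 0.64 ± 0.13 SE, edgeR adjusted p = 4.53e-05). Between NCI-H1975 and NL20 the log2 difference was 0.19 with a 95% interval of -0.07 to 0.45. All 3 of its line differences were inside 2-fold, so that it also met the rule for a steady level given below.

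hsa_circ_11849 had the opposite order to hsa_circ_10431 and ranked first in 5 of the 6 libraries of the PC-9 groups. It had 4993, 1791 and 4213 CPM in osimertinib-resistant cells, 3120.2, 4384 and 3908 in FASN, 3688, 4097 and 4449 in pCMV6 and 4091, 3975 and 4388 in NCI-H1975. Its CPM were 8090.1, 6839 and 8474 with gefitinib resistance, 10650.0, 10647 and 7903 without it in PC-9, and 6324, 6025 and 6739.9 for NL20. Every library of the PC-9 groups lay above all others, and osimertinib-resistant replicate 2 was the lowest library. In NCI-H1975 it was 2.35-fold lower than in PC-9 (log2 -1.23 ± 0.14 SE, edgeR adjusted p = 2.61e-16).

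**Figure D2:**
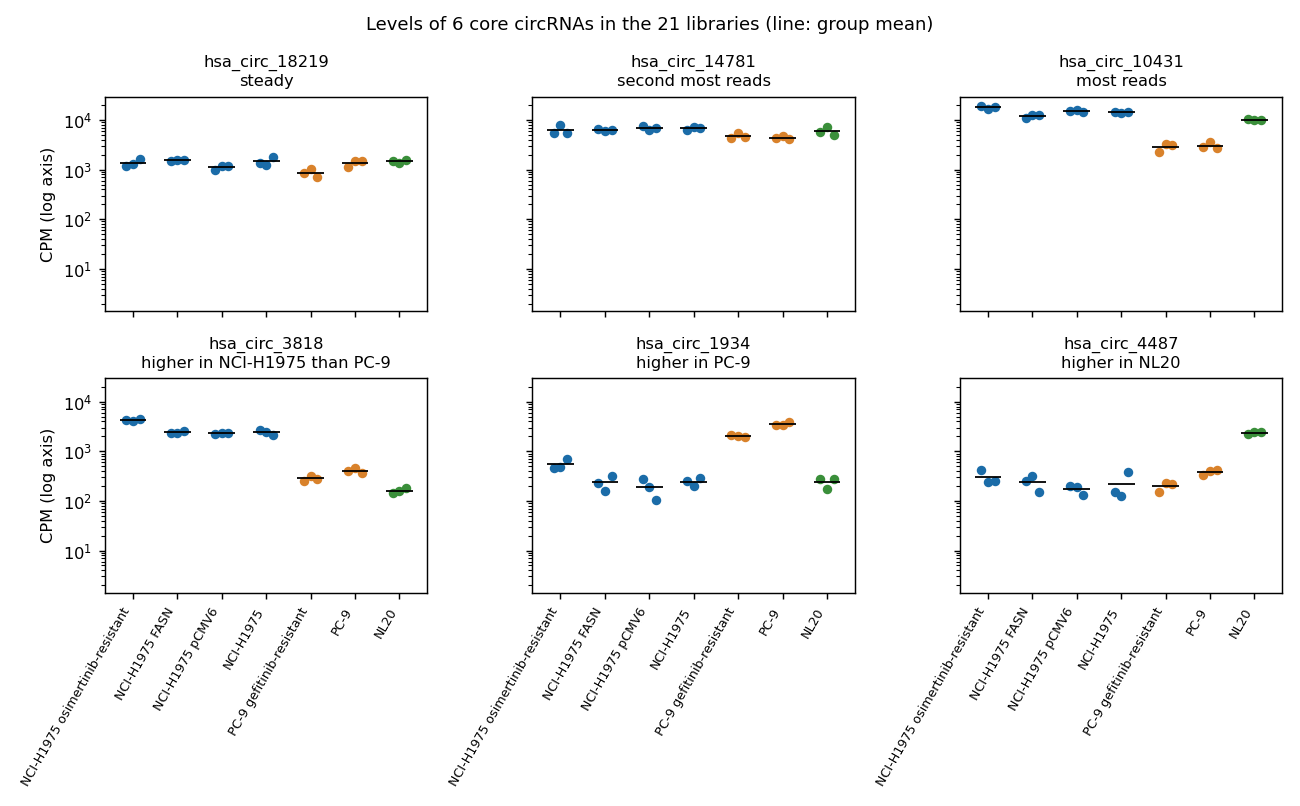
CPM of 6 core circRNAs in the 21 libraries on a log axis, by group. Points are libraries, the black line is the mean of a group (n = 3), and blue, orange and green mark NCI-H1975, PC-9 and NL20 libraries. hsa_circ_18219 lies between 725 and 1791 CPM in all libraries, hsa_circ_3818 and hsa_circ_10431 are lowest in NL20 and in the PC-9 groups, in that order, hsa_circ_1934 is highest in the PC-9 groups and hsa_circ_4487 in NL20.

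Line comparisons were made between the groups without a drug or plasmid code, to ask which core circRNAs are line-biased. In NCI-H1975, 368 members were higher and 330 lower than in PC-9 by edgeR's quasi-likelihood test, or 28.2% of those tested. Of all circRNAs tested 19.8% were called, 9.91% higher and 9.9% lower. Against NL20, NCI-H1975 had 308 members higher and 296 lower, 24.4% in all, where 16.3% of all circRNAs tested were called, 8.53% higher and 7.81% lower. PC-9 had 290 higher and 309 lower than NL20, 24.2% in all, against 16.8% of all circRNAs tested, 9.02% higher and 7.75% lower. The median log2 difference of members was near 0 in each (0.07, 0.00 and -0.09, against 0.03, 0.00 and -0.05 over all circRNAs tested). The comparisons share libraries pairwise.

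Differences among members were smaller than among all circRNAs tested. The median size was 0.81 on the log2 scale between NCI-H1975 and PC-9, against 1.12 over all circRNAs tested, and 39.6% of members differed more than 2-fold, against 54.4%. Against NL20 the median sizes were 0.70 for NCI-H1975 and 0.73 for PC-9, beside 0.99 and 1.02 over all circRNAs tested. The rule kept out any circRNA at 0 in a library, and members had more reads, so these sizes are given as a description. The members reached log2 differences of -4.52 to 3.70 between NCI-H1975 and PC-9.

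At the ends of the comparison of NCI-H1975 with PC-9 stood members with few reads in the lower line. hsa_circ_15967 had 249.7, 294 and 234 CPM in NCI-H1975 and 10.3, 21.9 and 23.8 in PC-9, with 88 and 6 reads, a log2 difference of 3.70 ± 0.75 SE (edgeR adjusted p = 2.14e-07). hsa_circ_12120 had 941, 936 and 1105 CPM in NCI-H1975 and 20.6, 80.2 and 155 in PC-9 (log2 3.57 ± 0.37 SE, edgeR adjusted p = 1.44e-22). Neither overlapped between the groups. On the other side, hsa_circ_11126 had 28.8, 26.7 and 56.5 CPM in NCI-H1975 and 702, 875 and 1131 in PC-9 (log2 -4.52 ± 0.49 SE, edgeR adjusted p = 8.94e-24). hsa_circ_1933 had 125, 35.7 and 121 CPM in NCI-H1975 and 2054, 2093 and 2059 in PC-9, and its PC-9 libraries were nearly alike (log2 -4.44 ± 0.32 SE, edgeR adjusted p = 1.15e-43).

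Against NL20, the same members led the rise in both cancer lines. hsa_circ_16673 had 1191, 1079 and 952 CPM in NCI-H1975 and 949, 1006 and 869 in PC-9, against 7.54, 14.0 and 8.52 in NL20, where its reads came to 4 in all. Its osimertinib-resistant libraries had 3288, 666 and 2354 CPM, with replicate 2 far below the others. hsa_circ_10547 had 893, 945 and 758 CPM in NCI-H1975 and 2662, 2385 and 2476 in PC-9, against 30.1, 14.0 and 42.6 in NL20. hsa_circ_16673 was thus higher by a log2 of 6.56 ± 0.62 SE in NCI-H1975 and 6.37 ± 0.62 SE in PC-9 (edgeR adjusted p = 1.94e-60 and 3.08e-56). For hsa_circ_10547 the values were 4.88 ± 0.39 SE and 6.42 ± 0.39 SE (edgeR adjusted p = 1.29e-54 and 7.44e-102), and both circRNAs were members through between 1 and 5 reads in each NL20 library.

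Lower than in NL20 were other members in each line. In NCI-H1975, hsa_circ_11128 had 57.6, 35.7 and 56.5 CPM, against 580.4, 908 and 545 in NL20 (log2 -3.73 ± 0.43 SE, edgeR adjusted p = 1.97e-19). hsa_circ_18896 had 19.2, 35.7 and 8.07 CPM in NCI-H1975 and 151, 321 and 341 in NL20 (log2 -3.63 ± 0.72 SE, edgeR adjusted p = 3.88e-07). In PC-9, hsa_circ_1808 had 114, 87.5 and 83.3 CPM, against 1477, 1179.9 and 1133 in NL20 (log2 -3.72 ± 0.37 SE, edgeR adjusted p = 7.09e-23). hsa_circ_14002 had 31.0, 7.29 and 59.5 CPM in PC-9 and 369, 328 and 426 in NL20 (log2 -3.61 ± 0.67 SE, edgeR adjusted p = 1.87e-07). None of the 4 overlapped between the compared groups.

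A member was called line-biased when it was called in the same direction against both other lines. By this rule 162 members were higher in NCI-H1975 and 128 lower, 163 were higher in PC-9 and 132 lower, and 120 were higher in NL20 and 94 lower. Over all circRNAs tested the rule held for 3.72% and 3.15% in NCI-H1975, 4.71% and 3.27% in PC-9, and 2.6% and 2.7% in NL20. For members the shares were 6.54% and 5.17%, 6.58% and 5.33%, and 4.84% and 3.79%. The members higher and lower in NCI-H1975 were 47 and 47 without a filter on low counts. In at least 1 of the 3 line comparisons 1102 members (44.5%) were called, against 32.8% of all circRNAs tested. In all 3, 100 members were called (4.04%, against 1.91% of all circRNAs tested).

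Line-biased members kept their level in the other groups of their line to different degrees. hsa_circ_1934, numbered next to hsa_circ_1933, had 2154, 2049 and 1959.9 CPM in gefitinib-resistant PC-9 and 3375, 3471 and 3868 in PC-9. Its levels were 464, 482 and 696 CPM in osimertinib-resistant, 234, 162 and 321 in FASN, 271, 193 and 104 in pCMV6 and 249.7, 196 and 290.4 in NCI-H1975 cells, and 271, 175 and 273 in NL20. Both PC-9 groups lay above all other libraries, the resistant cells below the others of their line. The fall in the resistant cells was called for hsa_circ_1934 (log2 -0.80 ± 0.20 SE, edgeR adjusted p = 0.012). hsa_circ_1933 had 1299.6, 1447 and 1099 CPM in gefitinib-resistant cells, also without overlap with PC-9, and was not called (log2 -0.69 ± 0.24 SE, edgeR adjusted p = 0.157).

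For each line, members were ranked by the smaller of their log2 differences from the other lines. hsa_circ_1808 and hsa_circ_4487 led those higher in NL20. hsa_circ_4487 had 424, 241 and 257 CPM in osimertinib-resistant, 247, 315 and 148 in FASN, 204, 193 and 130.1 in pCMV6 and 154, 125 and 379 in NCI-H1975 cells. PC-9 had 152, 230.1 and 215 CPM with gefitinib resistance and 341, 401 and 417 without it, against 2193, 2464 and 2463 in NL20. No library of a cancer line came near the NL20 libraries, from which NCI-H1975 differed by a log2 of -3.41 ± 0.28 SE (edgeR adjusted p = 4.36e-31). hsa_circ_1808 stood at 414, 333 and 429 CPM in osimertinib-resistant cells and 211, 178 and 153 in NCI-H1975, also far below NL20.

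hsa_circ_9163 and hsa_circ_8121 led those higher in NCI-H1975. hsa_circ_9163 had 471, 455 and 419 CPM in NCI-H1975, against 61.9, 29.2 and 35.7 in PC-9 and 22.6, 69.8 and 17.0 in NL20 (log2 against NL20 3.53 ± 0.49 SE, edgeR adjusted p = 1.95e-13). In gefitinib-resistant PC-9 it had 258, 87.7 and 45.3 CPM, which overlapped with PC-9. hsa_circ_8121 had 230.5, 214 and 403 CPM in NCI-H1975, 41.3, 29.2 and 59.5 in PC-9 and 15.1, 6.98 and 17.0 in NL20, where it was near the limit of the rule with 5 reads in all (log2 against NL20 4.35 ± 0.78 SE, edgeR adjusted p = 4e-10). hsa_circ_11128 and hsa_circ_11126 led the members lower in NCI-H1975. In osimertinib-resistant cells of the same line both were called higher than in NCI-H1975. hsa_circ_11128 had 282, 103 and 181 CPM in them, against 57.6, 35.7 and 56.5 (log2 1.91 ± 0.46 SE, edgeR adjusted p = 0.00162). hsa_circ_11126 had 70.6, 241 and 209.7 CPM, against 28.8, 26.7 and 56.5 in NCI-H1975 (log2 2.15 ± 0.52 SE, edgeR adjusted p = 0.00123). Neither overlapped between these groups. The pCMV6 libraries had 271, 116 and 91.1 CPM of hsa_circ_11128 and the FASN libraries 74.0, 99.0 and 98.6, also all above NCI-H1975. For hsa_circ_11126, pCMV6 libraries had 56.6, 142 and 169 CPM, above NCI-H1975. The FASN libraries had 86.3, 18.0 and 123 and overlapped with it. A level above NCI-H1975 was thus not confined to osimertinib-resistant cells. Those lower in PC-9 were led by hsa_circ_12729, with 10.3, 14.6 and 35.7 CPM in PC-9 against 128, 139.6 and 179 in NL20, and hsa_circ_15084, with 10.3, 21.9 and 71.4 in PC-9 against 196, 202 and 315 in NL20 (edgeR adjusted p = 0.00149 and 8.29e-05). hsa_circ_16673 and hsa_circ_10547, described above, led those lower in NL20.

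The line difference was then measured in libraries that the comparison of NCI-H1975 with PC-9 had not used. The mean of the osimertinib-resistant, FASN and pCMV6 groups was set against gefitinib-resistant PC-9, which adds whatever drug and plasmid do. Of the 698 members called between NCI-H1975 and PC-9, 638 differed in the same direction in these other libraries and 60 in the opposite one. Called again in the same direction were 419, comprising 192 of the 368 higher and 227 of the 330 lower in NCI-H1975, and 7 were called in the opposite direction. The repeat was not counted over all circRNAs tested, so these counts are not read as particular to members. The median size of their log2 difference was 1.67 in the first comparison and 1.04 in the second, signed by the first, which also chose these members. Across all 2478 members the log2 differences had a Pearson r of 0.69 and a Spearman rho of 0.65, as a description of members that are not independent. When osimertinib-resistant replicate 2 was left out, the second comparison had 633 of the 698 in the same direction and 65 in the opposite one, 417 were called again and 9 in the opposite direction, with an r of 0.68 and a rho of 0.65. In all, 689 members were called in the second comparison, 320 higher and 369 lower in the NCI-H1975 groups, where 22.7% of all circRNAs tested were called, 9.08% higher and 13.6% lower. Without that library the count was 696, 339 higher and 357 lower.

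**Figure D3:**
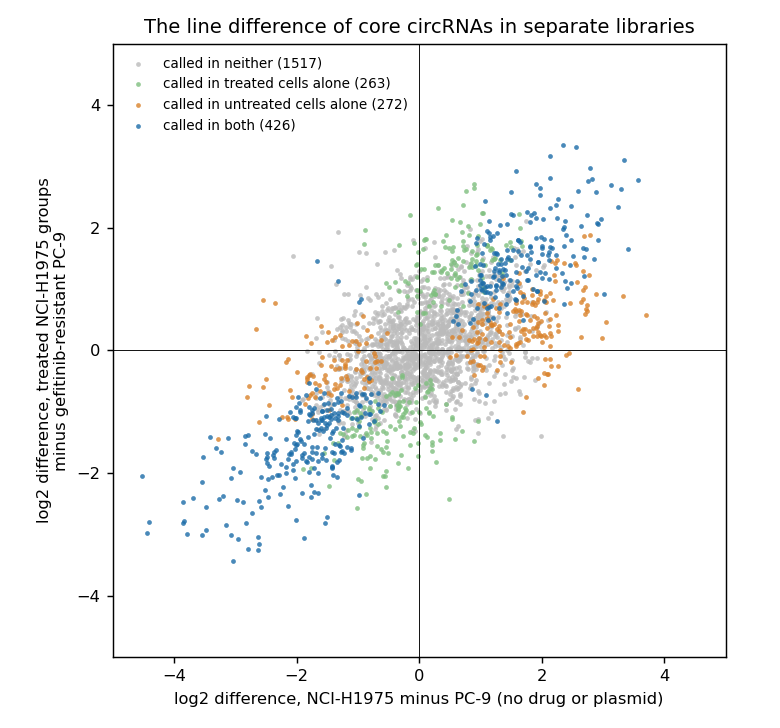
Log2 difference of each of the 2478 core circRNAs tested, NCI-H1975 minus PC-9, in cells with no drug or plasmid code (horizontal) and in the treated groups (vertical). Colours give the calls of edgeR's quasi-likelihood test at an adjusted p under 0.05. Of the 698 members called in the cells without a code, 638 have the same sign on both axes.

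Leading members of the second comparison kept the line difference over all groups to different degrees. hsa_circ_3818 had 4286, 4041 and 4422 CPM in osimertinib-resistant, 2380.2, 2349 and 2528 in FASN, 2194, 2319 and 2381 in pCMV6 and 2660.2, 2487 and 2129 in NCI-H1975 libraries. PC-9 had 258, 318 and 283 CPM with gefitinib resistance and 392, 459 and 369 without it, and NL20 143, 161 and 179. The 3 lines did not overlap in any library, and the osimertinib-resistant libraries were the highest. hsa_circ_4880 was also higher in the treated NCI-H1975 groups, at 234 to 916 CPM against 46.8, 54.8 and 22.7 in gefitinib-resistant PC-9, with log2 differences of 3.32 ± 0.19 SE for hsa_circ_3818 and 3.36 ± 0.49 SE for hsa_circ_4880 (edgeR adjusted p = 2.69e-61 and 9.27e-14). Lower were hsa_circ_14164 and hsa_circ_14196, at 22.6 to 181 and 24.7 to 343 CPM in the treated NCI-H1975 libraries, against 773, 679 and 804 and 1007, 932 and 872 CPM in gefitinib-resistant PC-9, with log2 differences of -3.43 ± 0.36 SE and -3.26 ± 0.32 SE (edgeR adjusted p = 1.75e-23 and 4e-28). Their means in PC-9 were 321 and 492 CPM, nearer to the 138 and 305 CPM of osimertinib-resistant NCI-H1975.

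Some members kept lines apart in every library, a rule chosen after the values were seen. All 12 libraries of the NCI-H1975 groups lay above all 6 of the PC-9 groups for 109 members (4.4%, against 2.7% of all circRNAs tested) and below them for 149 (6.01%, against 4.98%). All 3 NL20 libraries lay above the other 18 for 146 members (5.89%, against 4.27%) and below them for 59 (2.38%, against 1.17%). Without osimertinib-resistant replicate 2, which leaves fewer libraries to overlap, the counts were 124, 153, 147 and 67 in the same order. hsa_circ_10431 and hsa_circ_3818 were among those higher in NCI-H1975 groups, and hsa_circ_11849 and hsa_circ_1934 among those lower.

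A steady level was asked for as an interval, since a p that misses the threshold does not show that levels are alike. The 95% interval of the log2 difference lay inside 2-fold in all 3 line comparisons for 69 members (2.78%, against 0.752% of all circRNAs tested, all of them members). These were the well counted ones, with a median of 66.3 reads per library against 14.3 for other members tested. None of the 724 members with a mean under 10 reads and 2 of the 866 with 10 to 20 met the rule, against 20 of 609 with 20 to 50 and 47 of 279 with 50 or more (16.8%). Calls rose with depth too. In at least 1 line comparison 13.1%, 42.3%, 68.3% and 80.6% of these classes were called, while the median size of the log2 difference between NCI-H1975 and PC-9 was 0.72, 0.81, 0.85 and 0.86. Of the 69 steady members, 5 were also called in a line comparison, with a difference inside 2-fold.

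**Figure D4:**
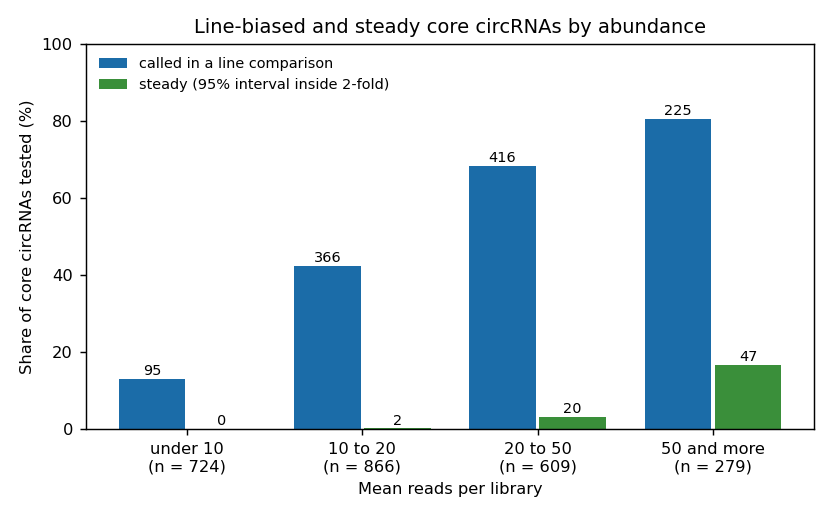
Share of core circRNAs tested, in percent, that were called in at least 1 of the 3 line comparisons (blue) or were steady (green), by mean reads per library. Numbers above the bars are members, and n is the number of members in a class. Both shares are highest in members with a mean of 50 reads or more, at 80.6% and 16.8%.

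The steady members whose intervals reached least far from 0 in the 3 line comparisons were hsa_circ_18219 and hsa_circ_15618. This ranking favours members with many reads and leaves out the groups with a drug or plasmid code. Over all groups, the mean of hsa_circ_18219 ran from 874 CPM in gefitinib-resistant PC-9 to 1528 in FASN cells. hsa_circ_18219 had 1364, 1230.0 and 1791 CPM in NCI-H1975, 1145, 1473 and 1476 in PC-9 and 1500.0, 1375 and 1559 in NL20. Its log2 differences had 95% intervals of -0.28 to 0.48 between NCI-H1975 and PC-9, -0.39 to 0.36 between NCI-H1975 and NL20, and -0.49 to 0.27 between PC-9 and NL20. In the other groups it had 1200.2, 1320.2 and 1649 CPM in osimertinib-resistant, 1468, 1575 and 1541 in FASN, 973, 1159.7 and 1184 in pCMV6 and 855, 1041 and 725 in gefitinib-resistant cells. The gefitinib-resistant libraries all lay below the PC-9 ones, a difference that was not called (log2 -0.64 ± 0.20 SE, edgeR adjusted p = 0.0875).

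hsa_circ_15618 had 922, 615 and 758 CPM in NCI-H1975, 619, 788 and 797 in PC-9 and 784, 852 and 656 in NL20, and the groups overlapped. In the other groups it had 565, 551 and 753 CPM in osimertinib-resistant, 654, 774 and 1011 in FASN, 667, 863 and 546 in pCMV6 and 550.3, 559 and 544 in gefitinib-resistant cells. The farthest bound of its 3 intervals was 0.53 from 0 on the log2 scale. The gefitinib-resistant libraries lay below the PC-9 ones here as well, and the difference was not called (log2 -0.42 ± 0.25 SE, edgeR adjusted p = 0.574). Over the 7 groups, the highest and the lowest mean log2 CPM of a steady member differed by a median of 0.79, against 1.49 for other members tested, and for 51 of the 69 by less than 1. Of the steady members, 6 were called in a comparison within a line.

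Resistance and plasmid changed fewer members than line did. In at least 1 of the 4 comparisons within a line 223 members were called (9%, against 4% of all circRNAs tested). Of these, 37 were called in no line comparison (1.49% of members, against 0.796% of all circRNAs tested). The median size of the log2 difference of members was 0.46 with gefitinib resistance, 0.49 with osimertinib resistance, 0.38 for pCMV6 against NCI-H1975 and 0.38 for FASN against pCMV6, where line comparisons had 0.70 to 0.81. A median member had an SE of 0.53 to 0.56 in these comparisons, larger than each of these median sizes.

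In gefitinib-resistant PC-9, 47 members were higher and 37 lower than in PC-9 by edgeR's quasi-likelihood test, 3.39% in all. Of all circRNAs tested 1.35% were called, 0.73% higher and 0.621% lower. hsa_circ_15967 had 187, 121 and 90.6 CPM in the resistant cells and 10.3, 21.9 and 23.8 in PC-9 (log2 2.74 ± 0.77 SE, edgeR adjusted p = 0.00975). hsa_circ_3924 had 539, 230.1 and 464 CPM, against 92.9, 51.0 and 83.3 in PC-9 (log2 2.46 ± 0.43 SE, edgeR adjusted p = 3.78e-06). Both were also lower in PC-9 than in NCI-H1975, a comparison that shares the PC-9 libraries. Lower in the resistant cells were hsa_circ_5316, with 11.7, 54.8 and 11.3 CPM against 227, 321 and 190.4 in PC-9, and hsa_circ_765, with 70.2, 54.8 and 56.6 against 227, 299 and 226 (edgeR adjusted p = 0.00115 and 0.00962). The count fell to 42 without PC-9 replicate 2 and to 45 without gefitinib-resistant replicate 3. The calls of hsa_circ_15967 and hsa_circ_765 each remained in 3 of the 6 fits made without a library, and those of hsa_circ_3924 and hsa_circ_5316 in all 6. Calls for hsa_circ_15967 and hsa_circ_765 were lost without a filter on low counts (edgeR adjusted p = 0.307 and 0.324).

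In osimertinib-resistant NCI-H1975, 78 members were higher and 64 lower than in NCI-H1975 by the same edgeR test, 5.73% in all. Of all circRNAs tested 2.52% were called, 1.36% higher and 1.16% lower. hsa_circ_18854 had 686, 494 and 515 CPM in the resistant cells and 38.4, 80.2 and 64.5 in NCI-H1975 (log2 3.17 ± 0.48 SE, edgeR adjusted p = 5.01e-09). The FASN and pCMV6 libraries, at 22.6 to 90.2 CPM, were as low as NCI-H1975, and NL20 stood at 520.1, 461 and 435 CPM. hsa_circ_14011 had 252, 402 and 181 CPM, against 67.2, 26.7 and 16.1 in NCI-H1975 (log2 2.91 ± 0.64 SE, edgeR adjusted p = 0.000321). Lower were hsa_circ_9179, with 20.2, 11.5 and 66.7 CPM against 298, 294 and 177 in NCI-H1975, and hsa_circ_11882, with 30.3, 23.0 and 19.1 against 192, 187 and 121 (edgeR adjusted p = 0.00111 and 0.00893). These 4 calls remained in all 6 fits made without a library, and that of hsa_circ_11882 was lost without a filter on low counts (edgeR adjusted p = 0.139). The pCMV6 libraries of hsa_circ_9179 had 147, 90.2 and 78.1 CPM, also all below NCI-H1975. This difference was not called (edgeR adjusted p = 0.548). The FASN libraries of hsa_circ_11882 had 111, 90.02 and 111 CPM, also all below NCI-H1975, against which FASN was not tested. The FASN libraries of hsa_circ_9179 and the pCMV6 libraries of hsa_circ_11882 overlapped with NCI-H1975. A level below NCI-H1975 was thus not confined to osimertinib-resistant cells. Without osimertinib-resistant replicate 2 the count was 117, 65 higher and 52 lower, and it was 86 without NCI-H1975 replicate 1 and 88 without replicate 3.

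The resistance changes were compared with each other by an interaction term. For a difference between them, the edgeR test called 104 members, of which 54 had a higher log2 change with gefitinib resistance and 50 with osimertinib resistance. Of all circRNAs tested 1.77% were called, 0.828% higher and 0.937% lower, and of members 4.2%. hsa_circ_19001 had 667, 723 and 509.8 CPM in gefitinib-resistant cells against 279, 175 and 238 in PC-9, and 161, 57.4 and 105 in osimertinib-resistant cells against 403, 659.6 and 589 in NCI-H1975. It rose with gefitinib and fell with osimertinib resistance, both called, with a difference between the log2 changes of 3.80 ± 0.46 SE (edgeR adjusted p = 3.04e-13). hsa_circ_12458 had 70.2, 87.7 and 34.0 CPM in gefitinib-resistant cells against 248, 299 and 190.4 in PC-9, and 242, 103 and 353 against 125, 35.7 and 72.6 in the NCI-H1975 pair. It fell with gefitinib resistance (edgeR adjusted p = 0.042), and its osimertinib-resistant libraries overlapped with NCI-H1975. The difference between its changes was -3.52 ± 0.79 SE on the log2 scale (edgeR adjusted p = 0.00134). With hsa_circ_11052 removed before scaling, 64 members had a higher change with gefitinib resistance and 38 a lower one. Without gefitinib-resistant replicate 3 the count was 69. Leaving out osimertinib-resistant replicate 2 gave 119, 61 higher and 58 lower, and the difference of hsa_circ_19001 was 3.57. For this difference, the calls of hsa_circ_9179 and hsa_circ_12458 were lost without a filter on low counts (edgeR adjusted p = 0.172 and 0.0858).

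The transfected cells differed least. In pCMV6 cells, 9 members were higher and 6 lower than in NCI-H1975 by the edgeR test, with 206 at an unadjusted p under 0.05. The unadjusted count was not made over all circRNAs tested and is not read as particular to members. Called were 0.605% of members, and 0.36% of all circRNAs tested, 0.12% higher and 0.24% lower. hsa_circ_13756 had 666, 441 and 826 CPM in FASN, 2002, 1533 and 1912 in pCMV6 and 691, 642 and 452 in NCI-H1975 libraries. It was higher in pCMV6 cells than in both (log2 1.61 ± 0.23 SE against NCI-H1975, edgeR adjusted p = 3.18e-09), and this call remained in all 6 fits without a library. hsa_circ_13854 was also higher, at 464, 361 and 416 CPM in pCMV6 and 96.0, 134 and 169 in NCI-H1975 (edgeR adjusted p = 0.00834), and this call remained in 3 of 6. Lower were hsa_circ_15641, with 11.3, 12.9 and 52.0 CPM in pCMV6 against 154, 258 and 96.8 in NCI-H1975, and hsa_circ_10060, with 67.9, 168 and 13.0 against 317, 321 and 379 (edgeR adjusted p = 0.022 and 0.00251), with calls that held in 3 and 4 of 6 fits. Neither hsa_circ_13854 nor hsa_circ_15641 was called without a filter on low counts (edgeR adjusted p = 1 and 0.197). The split turned round to 6 higher and 14 lower when hsa_circ_11052 was removed before scaling, which moved the median log2 difference of all circRNAs tested by -0.10, and was 12 and 4 without scaling factors. Without a library the count was 5 (pCMV6 replicate 1), 9 (pCMV6 replicate 2), 8 (NCI-H1975 replicates 1 and 2) or 9 (NCI-H1975 replicate 3). FASN cells, also transfected and in G418, had 160, 153 and 123 CPM of hsa_circ_13854, below pCMV6 and overlapping with NCI-H1975. Their hsa_circ_10060, at 259, 234 and 222 CPM, lay between the pCMV6 and the NCI-H1975 libraries. Their hsa_circ_15641, at 86.3, 27.0 and 98.6 CPM, overlapped with both.

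FASN cells had 5 members higher and 7 lower than pCMV6 cells by the edgeR test, with 224 at an unadjusted p under 0.05. Here too the unadjusted count was made for members alone and is not read as particular to them. Called were 0.484% of members, and 0.316% of all circRNAs tested, 0.196% higher and 0.12% lower. This comparison shares the pCMV6 libraries with the one before. hsa_circ_335 had 444, 324 and 358 CPM with FASN and 79.2, 77.3 and 104 with pCMV6, without overlap (log2 2.09 ± 0.48 SE, edgeR adjusted p = 0.00388), and its call remained in 5 of 6 fits without a library. NCI-H1975 stood at 346, 223 and 218 CPM. hsa_circ_1061 had 358, 252 and 395 CPM in FASN and 113, 25.8 and 169 in pCMV6 cells (edgeR adjusted p = 0.03), a call that held in 2 of 6. Lower were hsa_circ_6134, with 37.0, 54.0 and 49.3 CPM in FASN against 238, 116 and 351 in pCMV6 cells, a call that held in 1 of 6, and hsa_circ_13756, whose call held in all 6 (edgeR adjusted p = 0.0388 and 1.02e-07). Without a filter on low counts, hsa_circ_335, hsa_circ_1061 and hsa_circ_6134 were not called (edgeR adjusted p = 0.131, 0.566 and 1). The split was 3 higher and 12 lower without scaling factors and 7 and 4 with hsa_circ_11052 removed before scaling. The count was 5 without pCMV6 replicate 1, 7 without FASN replicate 1 and 5 without FASN replicate 3. The mean of hsa_circ_1061 was 335 CPM ± 164 SD in NCI-H1975, 335 ± 74.0 in FASN and 103 ± 72.2 in pCMV6 cells. For hsa_circ_6134 the means were 118 ± 72.7, 46.8 ± 8.79 and 235 ± 118 CPM in the same order.

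The numbering of the circRNAs starts with those of the table's first column of counts. The numbers 1 to 19494 are exactly the circRNAs read in pCMV6 replicate 1, and members were numbered 10 to 19489. Members with close numbers had alike line differences, as hsa_circ_1933 and hsa_circ_1934 do. Over the 446 pairs of members with consecutive numbers, Pearson's r of the log2 difference was 0.53 for PC-9 against NL20, 0.47 for NCI-H1975 against NL20 and 0.48 for NCI-H1975 against PC-9. Over 841 neighbours that were 2 to 5 numbers apart it was 0.31, 0.28 and 0.30, and over 982 that were 6 to 20 apart it was 0.09, 0.17 and 0.13. Both members of 50 consecutive pairs were called between NCI-H1975 and PC-9, of which 46 had the same direction and 4 the opposite. The table does not say what orders the numbers, neighbouring pairs share members, and the values are a description. Neither the pairs nor the correlations were taken over all circRNAs tested, so the likeness is not read as particular to members.

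**Figure D5:**
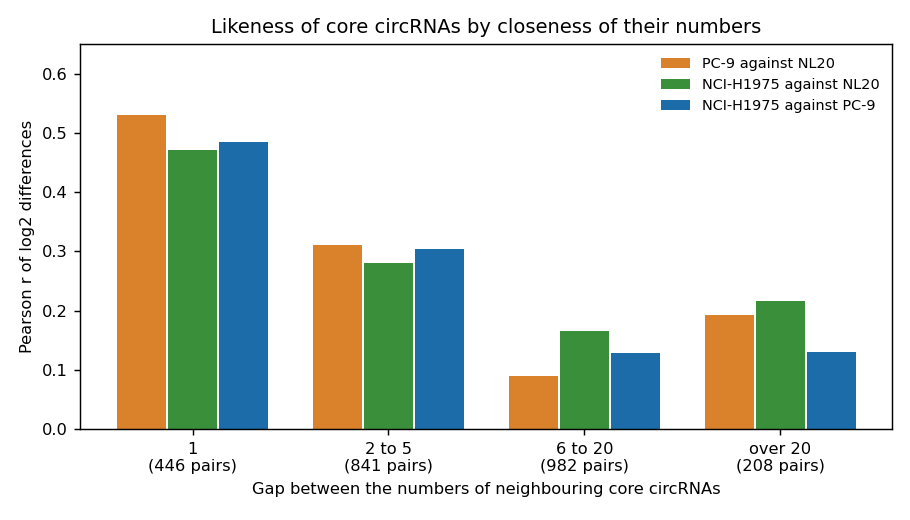
Pearson's r across pairs of neighbouring core circRNAs of their log2 differences in the 3 line comparisons, by the gap between their numbers. Bars are single values with no error. The r is highest for consecutive numbers, at 0.47 to 0.53, and 0.09 to 0.22 for gaps over 5.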

How the data were processed

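Reads of circular RNA were counted in 21 libraries from 3 cell lines. The authors deposited raw counts, 1 whole number for each circRNA and library, with no normalization visible in the values. The sequencing provider purified the circular RNA from column-extracted total RNA, per the labels' protocols. The submitters' processing notes name hg38, HISAT2 and DESeq2. No tool for calling circRNAs is given in these sources.

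The members were the rows with at least 1 read in every count column, without hsa_circ_11052. The members and lists were chosen with earlier results of these data known. The count model was edgeR 4.0.16 (R 4.3.3), with filterByExpr (minimum count 5, minimum total 15), TMM factors, and a robust quasi-likelihood fit with 7 group means. Benjamini-Hochberg adjustment ran over 9175 circRNAs. The SE and the 95% interval come from the fitted weights and the moderated spread, and intervals are centred on the unshrunk difference. Log2 CPM for spread and correlations used a prior count of 2. The code was tested on simulated data.

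Named members were, per comparison, at most 2 called higher and 2 called lower, with a mean of at least 10 reads and no overlap between groups, with the largest log2 difference. The overlap rule was not applied to the difference between the resistance changes. The 3 most read, the 2 steadiest, and for each line the 2 highest and the 2 lowest were also named. Alternatives were DESeq2 1.42.0, other scalings and filters, fits of the compared libraries alone, fits without a library and a replicate block. Library totals of 95808 to 203079 reads limit precision for members of few reads, and without molecular identifiers PCR copies of a molecule count as separate reads.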

Additional observations from a re-analysis of the deposited data

Results flagged for a closer look

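The changes of 13 named core circRNAs with gefitinib and with osimertinib resistance differed from each other in edgeR's quasi-likelihood test, which is every named member that passed it. The values are the log2 change with gefitinib resistance in PC-9 minus that with osimertinib resistance in NCI-H1975. Higher with gefitinib resistance were hsa_circ_15967, by 3.07 ± 0.90 SE (edgeR adjusted p = 0.0213), and hsa_circ_3924, by 2.25 ± 0.55 SE (edgeR adjusted p = 0.00526). hsa_circ_9179 differed by 3.65 ± 0.94 SE and hsa_circ_19001 by 3.80 ± 0.46 SE (edgeR adjusted p = 0.0069 and 3.04e-13). Lower with gefitinib resistance were hsa_circ_5316, at -3.16 ± 0.95 SE, and hsa_circ_765, at -2.87 ± 0.70 SE (edgeR adjusted p = 0.0342 and 0.00403). hsa_circ_18854 differed by -4.09 ± 0.70 SE and hsa_circ_12458 by -3.52 ± 0.79 SE (edgeR adjusted p = 2.4e-06 and 0.00134). Of the members named for other comparisons, hsa_circ_10547 differed by 1.85 ± 0.29 SE (edgeR adjusted p = 2.27e-07). hsa_circ_11126 stood at -3.05 ± 0.61 SE and hsa_circ_1933 at -2.63 ± 0.42 SE (edgeR adjusted p = 7.78e-05 and 2.92e-07). hsa_circ_1934 stood at -1.95 ± 0.32 SE and hsa_circ_3818 at -1.32 ± 0.29 SE (edgeR adjusted p = 1.44e-06 and 0.00134). With each of the 12 libraries left out in turn, hsa_circ_5316 passed in 5 fits, hsa_circ_15967 in 8, hsa_circ_3924 in 11 and the others in all 12. Without a filter on low counts 7 of the 13 did not pass, namely hsa_circ_9179, hsa_circ_12458, hsa_circ_15967, hsa_circ_3924, hsa_circ_5316, hsa_circ_765 and hsa_circ_3818. Members named for their size in these comparisons describe the extremes.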

How the results depend on the processing

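None of the 45 named calls tested again changed direction. Which of the higher and lower counts of called members was larger turned round under at least 1 alternative in 8 of the 9 comparisons, the treated groups excepted, so no such order is read from them. With hsa_circ_11052 removed before scaling they were 63 and 74 for osimertinib resistance, 6 and 14 for pCMV6 and 7 and 4 for FASN. Without a filter on low counts, the members called came to 299 for PC-9 against NL20, 251 for NCI-H1975 against NL20, 333 for NCI-H1975 against PC-9, 11 for gefitinib resistance, 32 for osimertinib resistance, 2 for pCMV6, 1 for FASN, 335 for the treated groups and 16 for the difference between the resistance changes. Members higher and lower were then 49 and 29 in NL20, 72 and 56 in PC-9 and 47 and 47 in NCI-H1975, and 45 were steady. Fits of the compared libraries alone called 128 for gefitinib resistance and 26 for pCMV6. DESeq2 called 152, 28 and 177 for gefitinib resistance, pCMV6 and the difference between the resistance changes, with no adjusted p for 153, 14 and 32 members. The cause of these changes was not tested. An interval inside 1.5-fold was met by 4 members. With at least 2 reads in every library, members held 42.4% of reads in osimertinib-resistant, 42.7% in FASN, 45.1% in pCMV6 and 42.4% in NCI-H1975 cells, 45.1% with gefitinib resistance, 44.4% without it in PC-9, and 44.1% for NL20. With at least 5 the shares were 33.8%, 34.2%, 36.0%, 34.0%, 35.7%, 35.3% and 35.3% in the same order, over 895 members, and 479 had at least 10. Without hsa_circ_11052 in the total, the shares of the 4 NCI-H1975 groups were 52.1%, 50.9%, 52.0% and 50.8%.

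With each library left out in turn, the members called ranged from 488 to 515 for PC-9 against NL20, 454 to 487 for NCI-H1975 against NL20, 549 to 597 for NCI-H1975 against PC-9, 42 to 60 for gefitinib resistance, 86 to 122 for osimertinib resistance, 5 to 12 for pCMV6, 5 to 11 for FASN, 506 to 696 for the treated groups and 69 to 119 for the difference between the resistance changes. Members higher and lower ranged from 83 to 111 and 68 to 86 in NL20, 128 to 150 and 97 to 120 in PC-9, and 120 to 138 and 78 to 112 in NCI-H1975, the 78 without NCI-H1975 replicate 2. Steady members ranged from 54 to 62, and members meeting the rule from 2493 to 2674. Of 372 such refits of named calls, 336 stayed past the threshold. Without osimertinib-resistant replicate 2, an alternative chosen after seeing the data, 633 line calls kept their direction in the treated groups and 417 were called again, and the 4 counts of lines apart in every library were 124, 153, 147 and 67.

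Samples with the same replicate number showed no shared deviation (correlations of -0.027 to 0.034), so the numbers were not used to pair the libraries. Such correlations cannot show whether libraries of the same number were prepared together. With a replicate block the counts were 582, 580, 660, 81, 130, 15, 10, 656 and 98 in the order above, and 2 of 45 named calls were lost, hsa_circ_6134 in FASN cells and hsa_circ_5316 in the difference between the resistance changes. The first was also lost with hsa_circ_11052 removed before scaling. Without a filter on low counts 15 of the 45 were lost. Library depth limits which members of few reads can be called.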
